A study of Mus musculus with 30 samples.

Results

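Interleukin-18, the proteins that mature and restrain it, and the gasdermins are described here through 9 mouse genes, Il18, Il18bp, Casp1, Casp4, Nlrp6, Pycard, Gsdmd, Gsdmc2 and Gsdmc4, chosen by their symbols out of 24746 gene symbols counted. All 9 had reads in the libraries and all 9 passed the filter on low counts in every fit. The libraries are 3′ tag messenger RNA libraries of whole intestine from C3H/HeOuJ mice, which count each transcript by a tag close to its 3′ end, whatever its length. There were 30 libraries, 3 in each of 10 groups. The terminal ileum makes up 6 groups, all untreated, from germ-free (GF), specific-pathogen-free (SPF) and colonised (COL) mice aged 6 or 10 weeks. COL mice were germ-free until week 5 and were then given the microbiota of SPF mice. Between 6-week and 10-week COL mice, age and time with a microbiota thus cannot be told apart. The distal colon makes up 4 groups, from SPF and COL mice aged 10 weeks that were untreated or had 1.5% dextran sulfate sodium (DSS) for 4 days followed by 2 days of water. DSS damages the lining of the colon. No germ-free colon was analysed here. Libraries held 2233837 to 9088573 reads counted in genes, and all 8 epithelial markers were detected in every group. SPF ileum replicate 3 at 10 weeks stood apart, with the fewest reads (2233837). Its smooth muscle markers summed to 220 CPM against 1280 CPM or more in the other 17 ileum libraries. Its T-cell markers, which include the granzyme genes Gzma and Gzmb, summed to 645 CPM against 267 CPM or less. CPM is the tag count relative to a library size scaled by TMM. Whether replicate libraries stem from different animals is not stated in the labels, so p-values measure the spread between libraries, which may be technical. Each library mixes epithelium, immune cells, muscle and nerve, and in such bulk tissue fewer cells of a type and less RNA per cell cannot be told apart.

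An inflammasome is a protein platform that forms when a sensor such as NLRP6 recognises a danger or microbial signal, recruits the adaptor ASC (encoded by Pycard) and activates the protease caspase-1. Caspase-1 cuts the inactive precursor of interleukin-18 into the active cytokine, while caspase-11, the product of mouse Casp4, binds bacterial lipopolysaccharide inside the cell. Both proteases cut gasdermin D, whose freed part opens pores in the cell membrane. In the gut, interleukin-18 is made largely by epithelial cells and acts on lymphocytes, the binding protein encoded by Il18bp keeps it from its receptor, and the gasdermin C genes are expressed in epithelium. These steps act on proteins, and the values below are of messenger RNA alone.

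The members differed in what they followed. Il18bp, Casp4 and Pycard were higher wherever an ileum had a microbiota, at both ages and in SPF and COL mice alike. Il18 was higher than in germ-free ileum at 6 weeks, and its 10-week differences did not pass the test. Gsdmc2 and Gsdmc4 were far higher in colon than in ileum and, within ileum, higher with a microbiota in 3 of 4 comparisons. DSS raised Il18bp in both kinds of colon, and Casp1 and Nlrp6 passed the test in none of the 18 comparisons.

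In mm10 with the GENCODE vM21 annotation, Casp1 (chromosome 9, 5298517 to 5307265) and Casp4 (chromosome 9, 5308828 to 5336783) lie side by side on the plus strand, 1562 bases apart. Gsdmc2 (chromosome 15, 63824346 to 63845177) and Gsdmc4 (chromosome 15, 63891264 to 63912297) belong to a 136 kb cluster on the minus strand with Gsdmc and Gsdmc3. Gsdmd lies elsewhere on the same chromosome (75862327 to 75867408, plus strand). Pycard (127989708 to 127993867, minus strand), Nlrp6 (140920902 to 140929192, plus strand) and Il18bp (102014885 to 102018690, minus strand) are on chromosome 7, and Il18 (50554827 to 50581840, plus strand) is on chromosome 9. All are protein-coding. Among sequences of 50 bases in the last 300 bases of the annotated transcripts, 63% of those of Gsdmc2 and 12.7% of those of Gsdmc4 also occur in another gasdermin C gene, so counts within that family are uncertain. Il18bp overlaps Numa1 on the other strand by 80 exon bases, 2.64% of its own, and the strand setting of the counting is not given in the sources used here. Numa1 was called in none of the comparisons in which Il18bp was.

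Promoters were available from RefSeq for 6 of the 9 members, as windows from 250 bases before to 50 bases after the transcription start in GRCm38.p6. Those of Il18, Il18bp, Casp4 and Pycard are shown because these 4 genes rose together with a microbiota in the 6-week ileum, and capitals mark every match to the motifs searched.
Il18 (chr9:50554450-50554749, plus strand): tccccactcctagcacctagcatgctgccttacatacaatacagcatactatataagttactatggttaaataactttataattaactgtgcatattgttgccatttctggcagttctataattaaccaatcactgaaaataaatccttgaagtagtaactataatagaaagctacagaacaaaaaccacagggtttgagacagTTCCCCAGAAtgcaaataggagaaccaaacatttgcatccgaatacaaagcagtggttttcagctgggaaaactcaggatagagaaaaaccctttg
Il18bp (chr7:102018183-102018482, minus strand): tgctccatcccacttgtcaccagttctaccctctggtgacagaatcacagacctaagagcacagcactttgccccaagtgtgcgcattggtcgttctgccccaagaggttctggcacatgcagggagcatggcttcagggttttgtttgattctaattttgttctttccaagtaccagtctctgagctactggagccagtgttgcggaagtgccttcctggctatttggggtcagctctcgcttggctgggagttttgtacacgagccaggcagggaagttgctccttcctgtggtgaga
Casp4 (chr9:5308599-5308898, plus strand): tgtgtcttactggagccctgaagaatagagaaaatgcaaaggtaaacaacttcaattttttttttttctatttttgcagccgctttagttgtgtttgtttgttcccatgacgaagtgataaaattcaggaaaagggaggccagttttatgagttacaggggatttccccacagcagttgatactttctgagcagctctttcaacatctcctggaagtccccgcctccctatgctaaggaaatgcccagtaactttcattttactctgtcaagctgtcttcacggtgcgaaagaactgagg
Pycard (chr7:127993818-127994117, minus strand): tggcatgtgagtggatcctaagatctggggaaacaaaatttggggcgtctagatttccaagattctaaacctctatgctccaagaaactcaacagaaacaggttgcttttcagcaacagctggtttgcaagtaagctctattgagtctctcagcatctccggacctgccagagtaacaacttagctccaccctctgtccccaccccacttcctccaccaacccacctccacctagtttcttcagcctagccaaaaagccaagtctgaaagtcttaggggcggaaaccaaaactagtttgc
The motifs, searched on both strands, were the interferon-gamma activated site TTCNNNGAA, the interferon-stimulated response element core GAAANNGAAA and the wider-spaced TTCNNNNGAA that STAT6 prefers. Of 32851 promoters of this length in the table, 8.3%, 3.44% and 6.95% hold them. The windows of Il18bp, Casp1, Casp4, Nlrp6 and Pycard hold none of the 3 motifs. For Il18bp the RefSeq window lies inside the gene as annotated by GENCODE, so sequence upstream of that gene's 5′ end (102018690) was not searched. For Il18 the window ends at 50554749, before the GENCODE start of the gene (50554827). The window of Il18 holds 1, TTCCCCAGAA, which matches the wider-spaced motif and starts 46 bases before the RefSeq transcription start (position -46). A match is a description of letters and not a binding site.

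**Figure D1:**
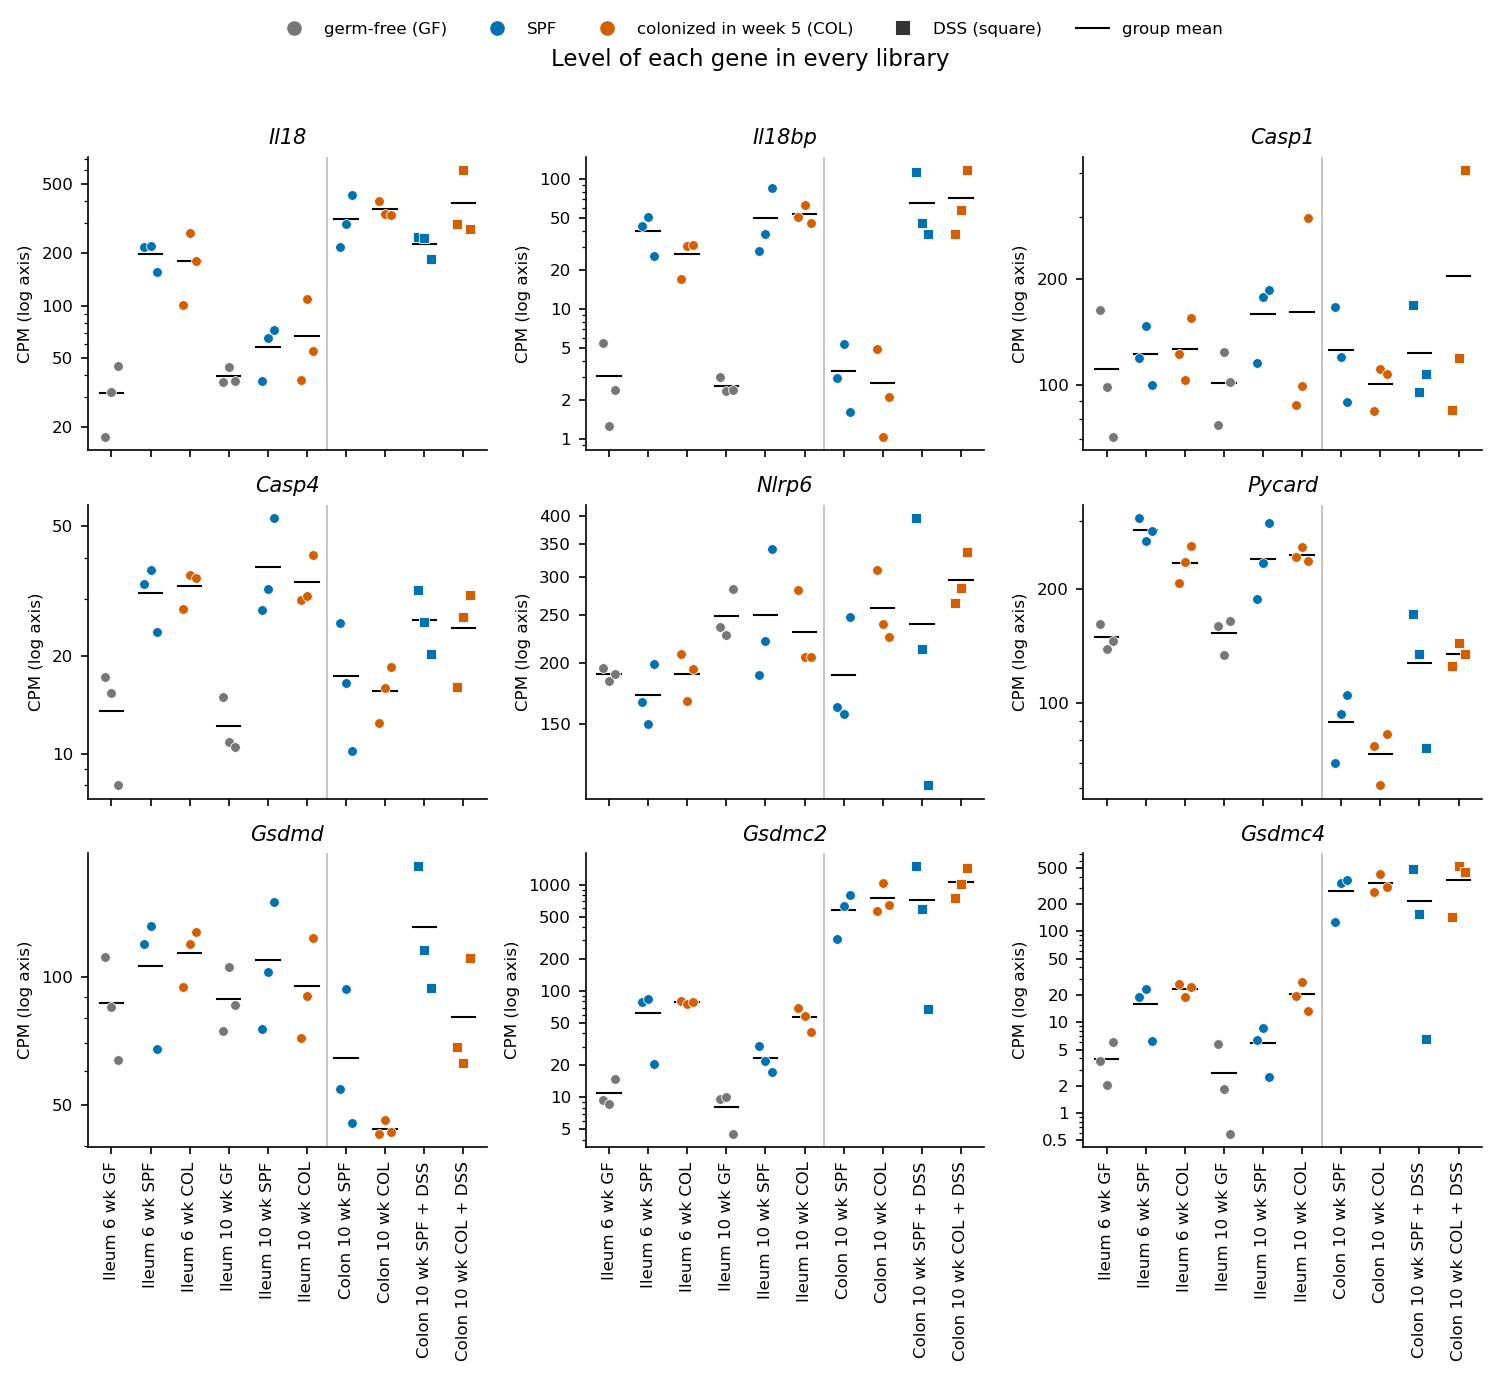
Level of each of the 9 genes in CPM (log axis) in every library, with 3 points per group and a black bar for the group mean; circles are untreated, squares DSS-treated, and the grey line divides ileum from colon. Il18bp lies between 1.03 and 5.51 CPM in every library of germ-free ileum and untreated colon and at 17 CPM or more in every other library.

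The cytokine gene Il18 was read at 17.6, 31.9 and 45.3 CPM in the 3 GF ileum libraries at 6 weeks. In 6-week SPF ileum it was 218, 221 and 156 CPM, and in 6-week COL ileum 101, 261 and 181 CPM. All 6 libraries with a microbiota lay above all 3 without, and SPF and COL overlapped. The log2 fold change over GF was 2.65 ± 0.45 (standard error, adjusted p = 0.002) in SPF and 2.5 ± 0.45 (adjusted p = 0.0048) in COL. Each adjusted p given here comes from the quasi-likelihood test of edgeR, corrected by Benjamini and Hochberg's method over all genes tested, and a call means an adjusted p under 0.05. Il18 in COL mice, colonised in week 5, differed from SPF at 6 weeks by -0.15 ± 0.41 (adjusted p = 0.97).

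At 10 weeks Il18 was 36.6, 44.6 and 37.2 CPM in GF ileum, 36.8, 65 and 73 CPM in SPF and 37.6, 109 and 54.9 CPM in COL. The 3 groups overlapped, with 1 SPF and 1 COL library at the germ-free level. Neither SPF (0.56 ± 0.44, adjusted p = 0.56) nor COL (0.81 ± 0.43, adjusted p = 0.31) passed against GF. Between the ages, Il18 was lower at 10 than at 6 weeks in SPF ileum without overlap (-1.78 ± 0.44, adjusted p = 0.062) and in COL ileum with overlap (-1.38 ± 0.43, adjusted p = 0.11). The SPF difference passed by DESeq2 (adjusted p = 0.0062) and with only those 6 libraries (0.025), and over all alternatives its adjusted p was 0.0062 to 0.21. The COL difference passed by DESeq2 (0.035; range 0.019 to 0.26). In GF ileum Il18 differed by 0.31 ± 0.44 (adjusted p = 1). The difference between the SPF effect at 10 weeks and that at 6 weeks was -2.09 ± 0.62 (unadjusted p = 0.0046, adjusted p = 0.41), and for COL it was -1.69 ± 0.61 (unadjusted p = 0.016, adjusted p = 0.34). The difference between the ages in the response of Il18 thus did not pass its own test.

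Colon held more Il18 than ileum of the same age. In untreated colon Il18 was 218, 297 and 433 CPM in SPF mice and 402, 338 and 333 CPM in COL mice. Every one of these libraries lay above every 10-week ileum library, and the log2 fold change of colon over ileum was 2.46 ± 0.41 in SPF (adjusted p = 3.2e-05) and 2.42 ± 0.40 in COL (adjusted p = 3.9e-05). After DSS it was 248, 246 and 186 CPM in SPF and 294, 604 and 275 CPM in COL colon. Against untreated colon the change was -0.48 ± 0.31 in SPF (adjusted p = 0.27) and 0.14 ± 0.30 in COL (adjusted p = 0.84). Among the DSS-treated libraries all 3 of COL lay above all 3 of SPF (0.78 ± 0.31), with an unadjusted p of 0.02 and an adjusted p of 0.56. By mean level the 4 colon groups came first, then SPF and COL ileum at 6 weeks, COL and SPF ileum at 10 weeks, and GF ileum at 10 and at 6 weeks. No neighbouring pair in that order was free of overlap.

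Il18bp encodes the soluble protein that captures interleukin-18. In GF ileum it was 5.51, 1.26 and 2.38 CPM at 6 weeks and 3, 2.33 and 2.38 CPM at 10 weeks. In SPF ileum it was 43.3, 50.7 and 25.6 CPM at 6 weeks and 27.9, 37.6 and 86 CPM at 10 weeks. In COL ileum it was 17, 30.8 and 31.1 CPM at 6 weeks and 51.4, 63.4 and 46 CPM at 10 weeks. Germ-free and colonised ileum did not overlap at either age. The log2 fold change over GF was 3.79 ± 0.48 in SPF and 3.18 ± 0.48 in COL at 6 weeks (adjusted p = 7.3e-05 and 7.1e-04). At 10 weeks it was 4.27 ± 0.50 in SPF and 4.43 ± 0.49 in COL (adjusted p = 4.1e-05 and 1.7e-05). Without GF replicate 1 the 6-week values were 4.43 in SPF and 3.83 in COL, and without SPF replicate 3, the library that stood apart, the 10-week SPF value was 3.71. In COL ileum Il18bp was higher at 10 than at 6 weeks without overlap, by 1.08 ± 0.39 (adjusted p = 0.16, and 0.0073 with only those 6 libraries). Age and time since colonisation cannot be told apart there.

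Untreated colon held little Il18bp, as germ-free ileum did, at 2.96, 5.35 and 1.61 CPM in SPF and 4.95, 1.03 and 2.11 CPM in COL mice. Against 10-week ileum of the same status the difference was -3.89 ± 0.62 in SPF and -4.27 ± 0.62 in COL on the log2 scale (adjusted p = 3.1e-05 and 9e-06), and -5.07 in COL without untreated colon replicate 1. After DSS it was 113, 46.3 and 38 CPM in SPF and 38, 57.5 and 118 CPM in COL. No DSS-treated library overlapped an untreated one. DSS raised Il18bp by 4.32 ± 0.65 in SPF (adjusted p = 8.7e-04) and by 4.69 ± 0.65 in COL (adjusted p = 0.0011). The SPF value was 3.68 without DSS replicate 1, and the COL value was 4.10 without DSS replicate 3 and 5.49 without untreated replicate 1. The DSS effects differed by 0.37 ± 0.88 (COL minus SPF, adjusted p = 0.93). The 10 groups fell into 6 with a mean of 26.3 to 71.2 CPM and 4 with a mean of 2.57 to 3.31 CPM, with no overlap between the lowest of the first and the highest of the second.

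The ratio of the inhibitor's to the cytokine's tags depends on how well each gene is captured, so it is read across libraries and not as an excess of either. Within a library, Il18bp counts per Il18 count were 0.00306 to 0.018 in the 6 untreated colon libraries. They were 0.188 to 0.456 in DSS-treated SPF colon and 0.0952 to 0.43 in DSS-treated COL colon, again without overlap with untreated colon. In ileum at 10 weeks they were 0.0523 to 0.0819 in GF, 0.578 to 1.18 in SPF and 0.584 to 1.37 in COL. At 6 weeks they were 0.0394, 0.0526 and 0.312 in GF, 0.164 to 0.23 in SPF and 0.118 to 0.172 in COL, and GF overlapped both. The 6-week GF library at 0.312 is replicate 1, which had the lowest Il18 and the highest Il18bp of its group.

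**Figure D2:**
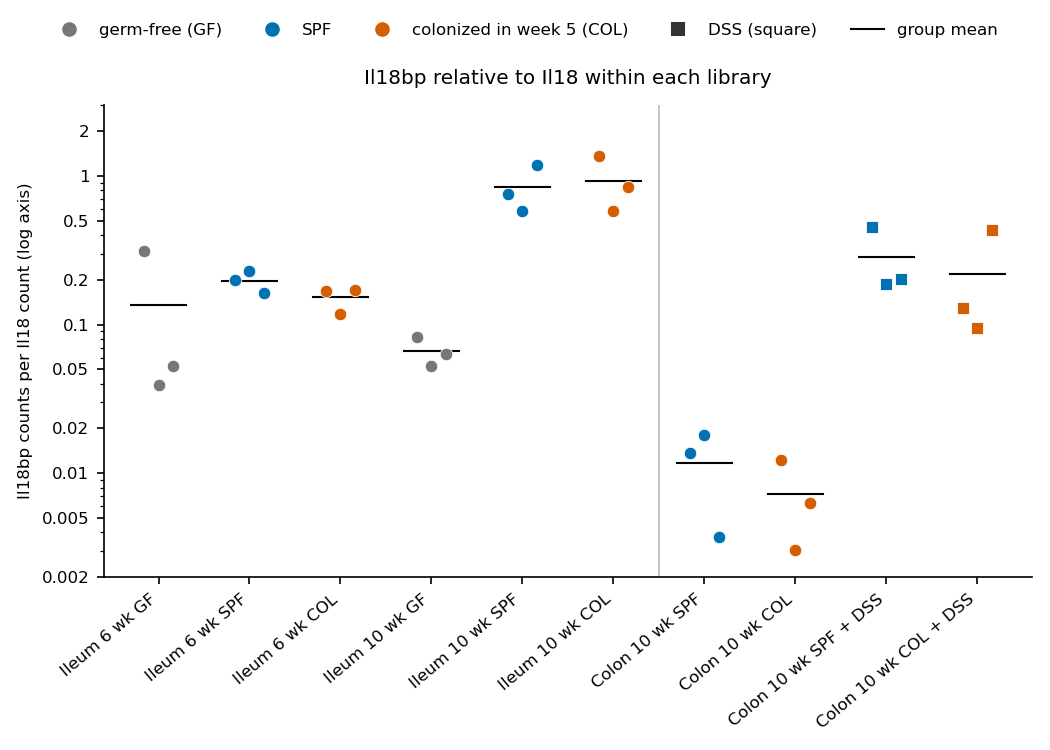
Counts of Il18bp per count of Il18 within each library (log axis) in the 10 groups, 3 points per group with the group mean as a bar. In 10-week SPF and COL ileum the ratio is 0.578 to 1.37, and in untreated colon it is 0.018 or less.

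Macrophage and dendritic cell markers were higher in SPF and COL than in GF ileum at both ages, as Il18bp was. T-cell markers were higher too, except in 6-week COL ileum. The summed level of 6 T-cell and intraepithelial lymphocyte markers was 0.471 to 18.5 CPM per library in 6-week GF ileum, 129 to 267 CPM in SPF and 13 to 16.7 CPM in COL. At 10 weeks it was 1.71 to 2.77 CPM in GF, 220 to 645 CPM in SPF and 77.2 to 94.1 CPM in COL. All 6 were detected in each of these groups, and they include the granzyme genes Gzma and Gzmb. Mean Gzma alone was 139 CPM in SPF and 9.94 CPM in COL at 6 weeks, and 302 and 60.9 CPM at 10 weeks. The sum in SPF and COL ileum was thus mostly Gzma and is not a measure of T-cell number. The 6-week COL libraries, at 17 to 31.1 CPM of Il18bp, overlapped GF in these markers, where the GF library at 18.5 CPM was replicate 1, the one with the highest Il18bp. The 8 macrophage and dendritic cell markers, all detected, summed to 102 to 165 CPM in GF, 238 to 260 CPM in SPF and 174 to 208 CPM in COL at 6 weeks, and to 100 to 120, 216 to 249 and 256 to 290 CPM at 10 weeks. In colon those 8 markers overlapped between untreated (151 to 249 CPM) and DSS-treated libraries (162 to 221 CPM). Monocyte and neutrophil markers, not all detected in every group, summed to 1.41 to 4.49 CPM in GF ileum at 6 weeks. They were 28.5 to 34.3 CPM in SPF and 2.78 to 4.9 CPM in COL, and 4.71 to 7.13, 41.3 to 52.7 and 49.8 to 53 CPM at 10 weeks. B-cell markers summed to 0 to 64.1 CPM in GF, 1.22 to 3.72 CPM in SPF and 0.805 to 1.62 CPM in COL ileum at 6 weeks. At 10 weeks they were 0.621 to 48.8, 2.5 to 515 and 97.6 to 272 CPM. The part of these cells in the Il18bp differences of the ileum was not tested.

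Of the inflammasome components, the sensor gene Nlrp6 showed the least spread between conditions, with a ratio of highest to lowest group mean of 1.73. Its means ran from 172 CPM in 6-week SPF ileum to 296 CPM in DSS-treated COL colon, and all neighbouring groups but 1 pair overlapped. Against GF ileum the log2 differences were -0.13 ± 0.19 and -0.01 ± 0.19 in SPF and COL at 6 weeks and 0.03 ± 0.19 and -0.07 ± 0.19 at 10 weeks (adjusted p = 0.77 to 0.99). DSS-treated SPF colon was uneven, at 396, 213 and 112 CPM, and its change of 0.34 ± 0.34 did not pass (adjusted p = 0.48) and was -0.22 without DSS replicate 1. Nlrp6 in 10-week ileum was higher than in 6-week ileum by 0.55 ± 0.19 in SPF (unadjusted p = 0.0072, adjusted p = 0.12), 0.39 ± 0.19 in GF (unadjusted p = 0.046, adjusted p = 1) and 0.34 ± 0.19 in COL (unadjusted p = 0.086, adjusted p = 0.37).

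Pycard, the adaptor gene, was 162, 139 and 146 CPM in 6-week GF ileum, 306, 267 and 283 CPM in SPF and 207, 235 and 259 CPM in COL. The 3 groups did not overlap, with SPF above COL and COL above GF. Pycard rose over GF by 0.95 ± 0.16 in SPF (adjusted p = 3e-04) and by 0.64 ± 0.16 in COL (adjusted p = 0.018). The COL call was lost without GF replicate 2 or 3 (adjusted p = 0.11 and 0.07) and without COL replicate 2 or 3 (0.062 and 0.1), in a range of 0.002 to 0.11 over its alternatives. The difference of COL from SPF, -0.31 ± 0.16, did not pass (adjusted p = 0.65). At 10 weeks Pycard was 160, 134 and 164 CPM in GF, 188, 234 and 297 CPM in SPF and 242, 257 and 236 CPM in COL. GF again lay below both without overlap. The rises were 0.68 ± 0.16 in SPF (adjusted p = 0.01) and 0.73 ± 0.16 in COL (adjusted p = 0.0038), and the SPF call was lost without SPF replicate 3 (0.51, adjusted p = 0.062) or GF replicate 2 (0.096) and with only the 6 libraries compared (0.064). SPF replicate 3, low in smooth muscle and high in T-cell markers, had the highest Pycard, Casp4 and Il18bp of its group, and the part of its tissue makeup in these values was not tested.

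Pycard was lower in colon than in ileum. It was 69.9, 94 and 105 CPM in untreated SPF colon and 77.3, 61 and 83 CPM in untreated COL colon, all below every ileum library. The difference was -1.41 ± 0.22 in SPF (adjusted p = 4.8e-06) and -1.73 ± 0.22 in COL (adjusted p = 1.7e-07). After DSS it was 172, 135 and 76.2 CPM in SPF and 125, 144 and 135 CPM in COL. The COL libraries did not overlap the untreated ones, and the change of 0.88 ± 0.26 had an adjusted p of 0.053. It passed by DESeq2 (0.025), with no filter (0.04) and with only those 6 libraries (0.0082), in a range of 0.0082 to 0.18. In SPF, where DSS replicate 3 lay among the untreated libraries, it was 0.51 ± 0.26 (adjusted p = 0.16, and 0.78 with adjusted p = 0.039 without that replicate).

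Casp1, which encodes the protease that matures interleukin-18, was not called in any of the 18 comparisons as fitted. Among the alternatives it passed in 1, SPF against GF ileum at 10 weeks with only those 6 libraries and the replicate number as a block (adjusted p = 0.024, against 0.44 as fitted and up to 0.7 over the alternatives). Its group means ran from 100 CPM in untreated COL colon to 204 CPM in DSS-treated COL colon, and all neighbouring groups overlapped. The high means of 2 groups came from single libraries. DSS-treated COL colon was 84.8, 119 and 407 CPM, and 10-week COL ileum was 87.6, 99.4 and 297 CPM. In both, replicate 3 stood apart. DSS in COL colon gave 1.03 ± 0.47 (unadjusted p = 0.045, adjusted p = 0.21), which was 0.02 without DSS replicate 3 (adjusted p = 0.98). The neighbouring gene Casp4 was also highest in replicate 3, but by less, at 16.1, 26.4 and 30.7 CPM in that colon group. In 10-week COL ileum it was 29.6, 30.5 and 40.9 CPM. Casp4 counts per Casp1 count were 0.0756 in that colon library against 0.19 and 0.221 in the others of its group.

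Casp4, the gene of the lipopolysaccharide-binding caspase, followed the microbiota in ileum. It was 17.2, 15.4 and 8 CPM in 6-week GF ileum, 33.3, 36.6 and 23.7 CPM in SPF and 27.9, 35.5 and 34.8 CPM in COL. At 10 weeks it was 15, 10.9 and 10.5 CPM in GF, 27.7, 32 and 53 CPM in SPF and 29.6, 30.5 and 40.9 CPM in COL. All GF libraries lay below all SPF and COL libraries of either age. The rises over GF were 1.23 ± 0.27 in SPF and 1.28 ± 0.27 in COL at 6 weeks (adjusted p = 0.0045 and 0.0052). At 10 weeks they were 1.63 ± 0.28 and 1.52 ± 0.28 (adjusted p = 5.1e-04 and 6.1e-04), and the SPF value was 1.34 (adjusted p = 0.0037) without SPF replicate 3. Casp1 next to it did not pass in these comparisons. Casp4 counts per Casp1 count had a group median of 0.103 and 0.112 in the 2 GF ileum groups and 0.228 to 0.307 in the other 4. No test of the difference between the genes was made.

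In colon Casp4 was 25.2, 16.5 and 10.2 CPM in untreated SPF mice and 12.4, 15.9 and 18.5 CPM in untreated COL mice. The difference from ileum was -1.10 ± 0.32 in SPF and -1.11 ± 0.31 in COL (adjusted p = 0.0071 and 0.0068), and the SPF call was lost without colon replicate 3 (adjusted p = 0.059) or ileum replicate 3 (0.053) and with only those 6 libraries (0.063). After DSS it was 31.9, 25.4 and 20.3 CPM in SPF and 16.1, 26.4 and 30.7 CPM in COL, overlapping the untreated libraries. The changes of 0.59 ± 0.33 and 0.65 ± 0.33 did not pass (adjusted p = 0.2 and 0.25).

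Gsdmd encodes the pore-forming target of both caspases. In ileum its group means were 87 to 114 CPM, with all groups overlapping, and no difference between GF, SPF and COL passed (0.15 to 0.39 over GF, adjusted p = 0.51 to 0.83). In untreated colon it was 54.3, 94 and 45.2 CPM in SPF and 42.7, 45.9 and 43.1 CPM in COL. After DSS it was 183, 116 and 94.6 CPM in SPF and 68.5, 62.8 and 111 CPM in COL. DSS-treated libraries lay above untreated ones in both kinds of mice, in SPF by a gap of under 1 CPM between the nearest pair. Gsdmd rose by 1.02 ± 0.30 in SPF (adjusted p = 0.022). That call was lost without DSS replicate 1 (0.71, adjusted p = 0.099) and without untreated replicate 1 (adjusted p = 0.08) or 3 (0.07), and with only those 6 libraries (0.064). The COL change of 0.89 ± 0.30 did not pass (adjusted p = 0.087, and 0.023 to 0.35 over its alternatives), and the 2 effects differed by -0.14 ± 0.43 (adjusted p = 0.95). The 6 smooth muscle markers, all detected, summed to 4210 to 5590 CPM in untreated and 859 to 3990 CPM in DSS-treated colon. Also lower without overlap were 4 colonocyte markers, at 6000 to 9510 CPM untreated and 2050 to 5070 CPM after DSS. The same held for 6 fibroblast markers (1310 to 1960 and 613 to 1030 CPM) and 7 nerve and glia markers (34.3 to 48.1 and 12.8 to 22.6 CPM). The 8 general epithelial markers overlapped (6240 to 9640 and 5740 to 10200 CPM). The part of this shift in tissue makeup in the higher Gsdmd, Pycard and Il18bp of DSS-treated colon was not tested. The difference of colon from ileum was -1.12 ± 0.31 in COL (adjusted p = 0.007, and 0.057 without ileum replicate 3). In SPF the difference was -0.76 ± 0.31 (adjusted p = 0.061), which passed without colon replicate 2 (-1.13, adjusted p = 0.011) or ileum replicate 1 (-0.97, adjusted p = 0.027).

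Gsdmc2 and Gsdmc4, members of the gasdermin C family that share 3′ sequence, had the widest range of the 9 genes, with a ratio of highest to lowest group mean of 132 and 135. Gsdmc2 was 310, 625 and 795 CPM in untreated SPF colon and 566, 1040 and 641 CPM in COL colon. In 10-week ileum it was 30.3, 22 and 17.5 CPM in SPF and 69.5, 58.7 and 41.4 CPM in COL. Colon lay above ileum without overlap by 4.60 ± 0.76 in SPF and 3.73 ± 0.71 in COL (adjusted p = 6.2e-05 and 4.1e-04). Gsdmc4 was 128, 342 and 364 CPM in untreated SPF colon, 268, 431 and 308 CPM in COL colon, 6.35, 8.72 and 2.5 CPM in SPF ileum and 19.2, 28 and 13.3 CPM in COL ileum. Its colon levels too were above ileum without overlap, by 5.45 ± 1.03 in SPF and 4.05 ± 0.92 in COL (adjusted p = 3e-04 and 0.0021).

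In ileum both gasdermin C genes were lowest without a microbiota. Gsdmc2 was 9.47, 8.64 and 15 CPM in 6-week GF ileum, 79, 85.1 and 20.6 CPM in SPF and 80.6, 75.1 and 78.9 CPM in COL. SPF replicate 3 lay between GF and the rest. Gsdmc2 rose by 2.47 ± 0.44 in SPF (adjusted p = 0.0023, and 0.077 with only those 6 libraries) and by 2.80 ± 0.45 in COL (adjusted p = 0.0014). Gsdmc4 was 3.74, 2.04 and 6.03 CPM in GF, 18.8, 22.9 and 6.25 CPM in SPF and 26.4, 19 and 24.5 CPM in COL at that age. It rose by 2.01 ± 0.58 in SPF (adjusted p = 0.043) and by 2.54 ± 0.59 in COL (adjusted p = 0.017). The SPF call of Gsdmc4 was lost without GF replicate 1 or 2 (adjusted p = 0.13 and 0.19) and without SPF replicate 1 or 2 (0.14 and 0.18) and with no filter (0.087), and the COL call without GF replicate 1 or 2 (0.069 and 0.1) or COL replicate 3 (0.059).

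At 10 weeks GF ileum held 9.64, 10.1 and 4.56 CPM of Gsdmc2 and 5.78, 1.86 and 0.594 CPM of Gsdmc4. COL was above GF by 2.84 ± 0.46 for Gsdmc2 (adjusted p = 9.9e-04) and 2.95 ± 0.62 for Gsdmc4 (adjusted p = 0.0053, and 3.99 without GF replicate 1). SPF was above GF without overlap for Gsdmc2, by 1.59 ± 0.47 with an adjusted p of 0.057. The adjusted p was 0.033 with the replicate number as a block over all 18 ileum libraries. Same-numbered libraries deviated together at every number only in these 2 groups, and the labels do not state what the numbers mark. Over the alternatives for this Gsdmc2 difference the adjusted p was 0.0016 to 0.24. For Gsdmc4 the SPF difference was 1.25 ± 0.65 (adjusted p = 0.32), which was 2.28 without GF replicate 1 (adjusted p = 0.065) and 0.77 without GF replicate 3. COL libraries lay above SPF libraries for both genes, by 1.25 ± 0.42 for Gsdmc2 and 1.70 ± 0.57 for Gsdmc4, with unadjusted p of 0.0099 and 0.0089 and adjusted p of 0.43 and 0.41. Between the ages, Gsdmc2 in SPF ileum was -1.34 ± 0.42 (adjusted p = 0.11), which was -1.75 with an adjusted p of 0.0015 without 6-week SPF replicate 3.

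DSS left the gasdermin C genes without a called change and with a wide spread. In DSS-treated SPF colon Gsdmc2 was 1490, 592 and 67.7 CPM and Gsdmc4 was 485, 155 and 6.48 CPM in replicates 1, 2 and 3. Gsdmc3, their neighbour in the cluster, was 402, 120 and 5.59 CPM. All 3 genes kept the same order of libraries, and replicate 3 lay below every untreated colon library. In DSS-treated COL colon Gsdmc2 was 753, 1020 and 1430 CPM and Gsdmc4 was 143, 518 and 448 CPM. The changes under DSS were 0.30 ± 0.76 and 0.52 ± 0.76 for Gsdmc2 and -0.37 ± 1.05 and 0.15 ± 1.05 for Gsdmc4 in SPF and COL (adjusted p = 0.74 to 0.95). The SPF values turned with single libraries, to -0.81 for Gsdmc2 and -1.78 for Gsdmc4 without DSS replicate 1 and to 0.85 and 0.20 without DSS replicate 3. The COL value of Gsdmc4 was -0.18 to 0.54 over its alternatives. The 7 monocyte and neutrophil markers, all detected in both DSS-treated groups and 6 and 4 of them in untreated SPF and COL colon, summed to 35.9, 111 and 1080 CPM in the DSS-treated SPF libraries in the same order, against 10.9 to 53.2 CPM in the other 9 colon libraries. DSS-treated SPF replicate 3 also had the lowest sums of all colon libraries for the 8 epithelial markers (5740 CPM) and the 4 colonocyte markers (2050 CPM). The part of any of these cells in the low gasdermin C values was not tested. Gsdmc3 counts per Gsdmc2 count were 0.453 to 0.581 in the 6 untreated and 0.0825 to 0.281 in the 6 DSS-treated colon libraries, without overlap.

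**Figure D3:**
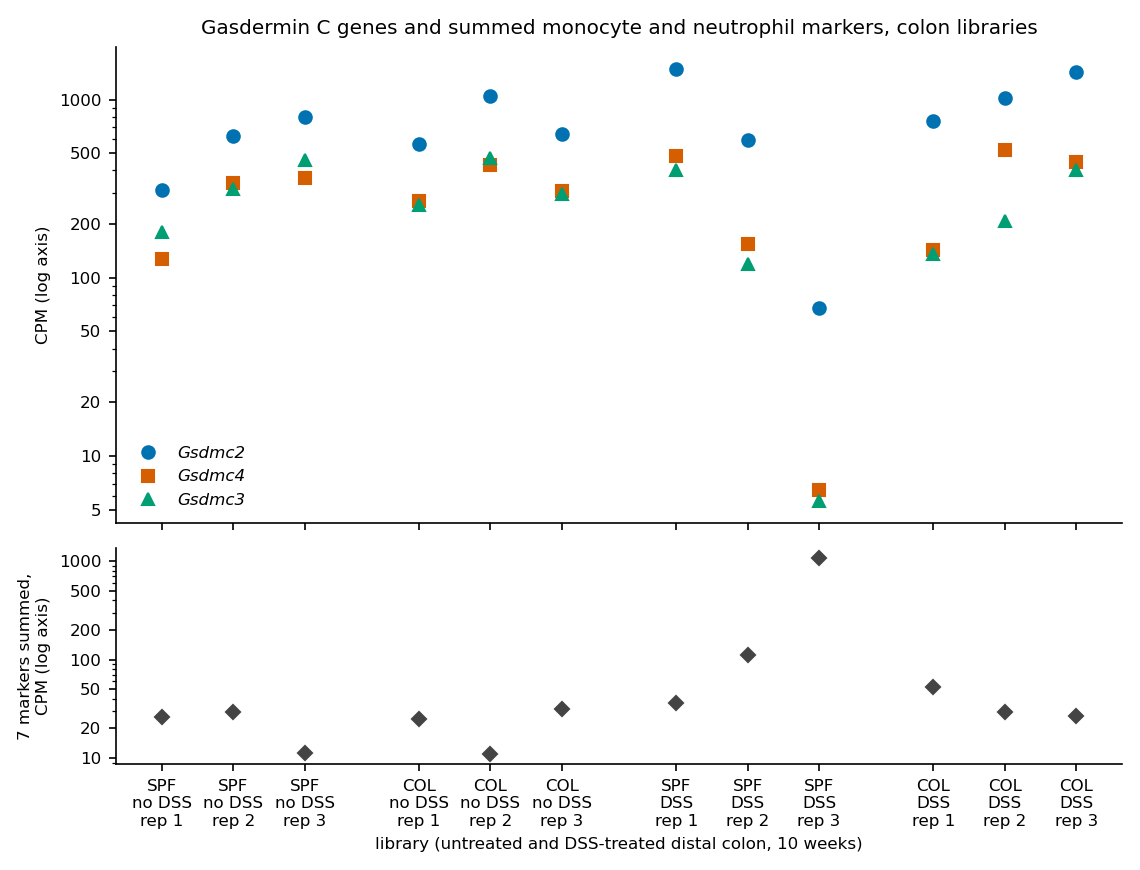
Upper panel, Gsdmc2, Gsdmc4 and Gsdmc3 in CPM (log axis) in the 12 colon libraries, 1 symbol per library. Lower panel, the summed CPM (log axis) of 7 monocyte and neutrophil markers in the same libraries, where DSS-treated SPF replicate 3 has the highest marker sum (1080 CPM) and the lowest gasdermin C levels (Gsdmc2 67.7 CPM).

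The 9 genes were chosen with earlier results of these data known, and Gsdmc2 and Gsdmc4 share 3′ sequence. Counts of members here and below are thus a description and not a test of the set. Counted over the 9 genes, 6 rose in SPF over GF ileum at 6 weeks (Il18, Il18bp, Casp4, Pycard, Gsdmc2 and Gsdmc4), where 4.37% of 13233 genes tested rose. The same 6 rose in COL over GF at that age, where 2.78% of all genes rose, and the 2 comparisons share their GF libraries. At 10 weeks 3 rose in SPF (Il18bp, Casp4 and Pycard) against 4.22% of all genes, and 5 rose in COL (also Gsdmc2 and Gsdmc4) against 5.1%. The median log2 fold change of the 9 was 1.23 and 1.28 in SPF and COL at 6 weeks and 0.68 and 0.81 at 10 weeks, and that of all genes was -0.02 to 0.02. No member fell against GF, where 3.33% and 1.86% of all genes fell in SPF and COL at 6 weeks and 1.98% and 4.04% at 10 weeks.

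COL and SPF ileum differed in 0 of the 9 genes at 6 weeks (0.0982% of all genes called) and in 0 at 10 weeks (0.0907%) by edgeR and by DESeq2, with 0 and 2 members at an unadjusted p under 0.05. Between the ages 0 of 9 passed by edgeR in GF ileum (0.0302% of all genes), in SPF (1.37%) and in COL (2.53%), with 1, 4 and 2 at an unadjusted p under 0.05. DESeq2 called 0, 2 (Il18 and Gsdmc2) and 1 (Il18). For the change of the SPF effect between ages 0 passed (0.0151% of all genes), and for that of the COL effect 0 passed (0.144%), each with Il18 alone at an unadjusted p under 0.05 and 0 by DESeq2.

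In colon, DSS raised 2 of the 9 genes in SPF mice (Il18bp and Gsdmd), where 12.2% of 12855 genes tested rose and 11.9% fell, and 1 in COL mice (Il18bp), where 4.14% rose and 3% fell. In COL mice 4 had an unadjusted p under 0.05 (Il18bp, Casp1, Pycard and Gsdmd). The median over the 9 was 0.34 in SPF and 0.65 in COL, beside -0.03 and 0.01 over all genes. The DSS effects in COL and SPF differed in 0 of the 9 genes (0% of all genes called), with 0 at an unadjusted p under 0.05 and 0 by DESeq2. COL against SPF colon gave 0 of 9 untreated (0% of all genes) and 0 of 9 after DSS (0.00778%) by both tools, with 0 and 2 at an unadjusted p under 0.05.

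Colon against ileum at 10 weeks gave 3 members higher (Il18, Gsdmc2 and Gsdmc4) in SPF, beside 15.3% of 13807 genes tested, and the same 3 in COL, beside 11.9%. Lower in colon were 3 in SPF (Il18bp, Casp4 and Pycard), beside 17.2% of all genes, and 4 in COL (also Gsdmd), beside 14.3%. Between the tissues 26.2 to 32.5% of all genes were called, so a call there is common. T-cell and intraepithelial lymphocyte markers summed to 1.58 to 4.12 CPM in untreated colon and to 77.2 to 645 CPM in the ileum libraries compared with it, without overlap. Most of that ileum sum was Gzma, at a mean of 302 CPM in SPF and 60.9 CPM in COL. Smooth muscle markers were higher in colon, at 4210 to 5590 CPM against 220 to 1970 CPM in that ileum, as were 6 fibroblast markers, at 1310 to 1960 CPM against 453 to 686 CPM. The part of these cells in the lower Il18bp, Casp4 and Pycard of colon was not tested. Tissue markers matched the labels, with 4 ileal enterocyte markers at 14200 CPM or more summed in every ileum library and at 263 CPM or less in every colon library.

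**Figure D4:**
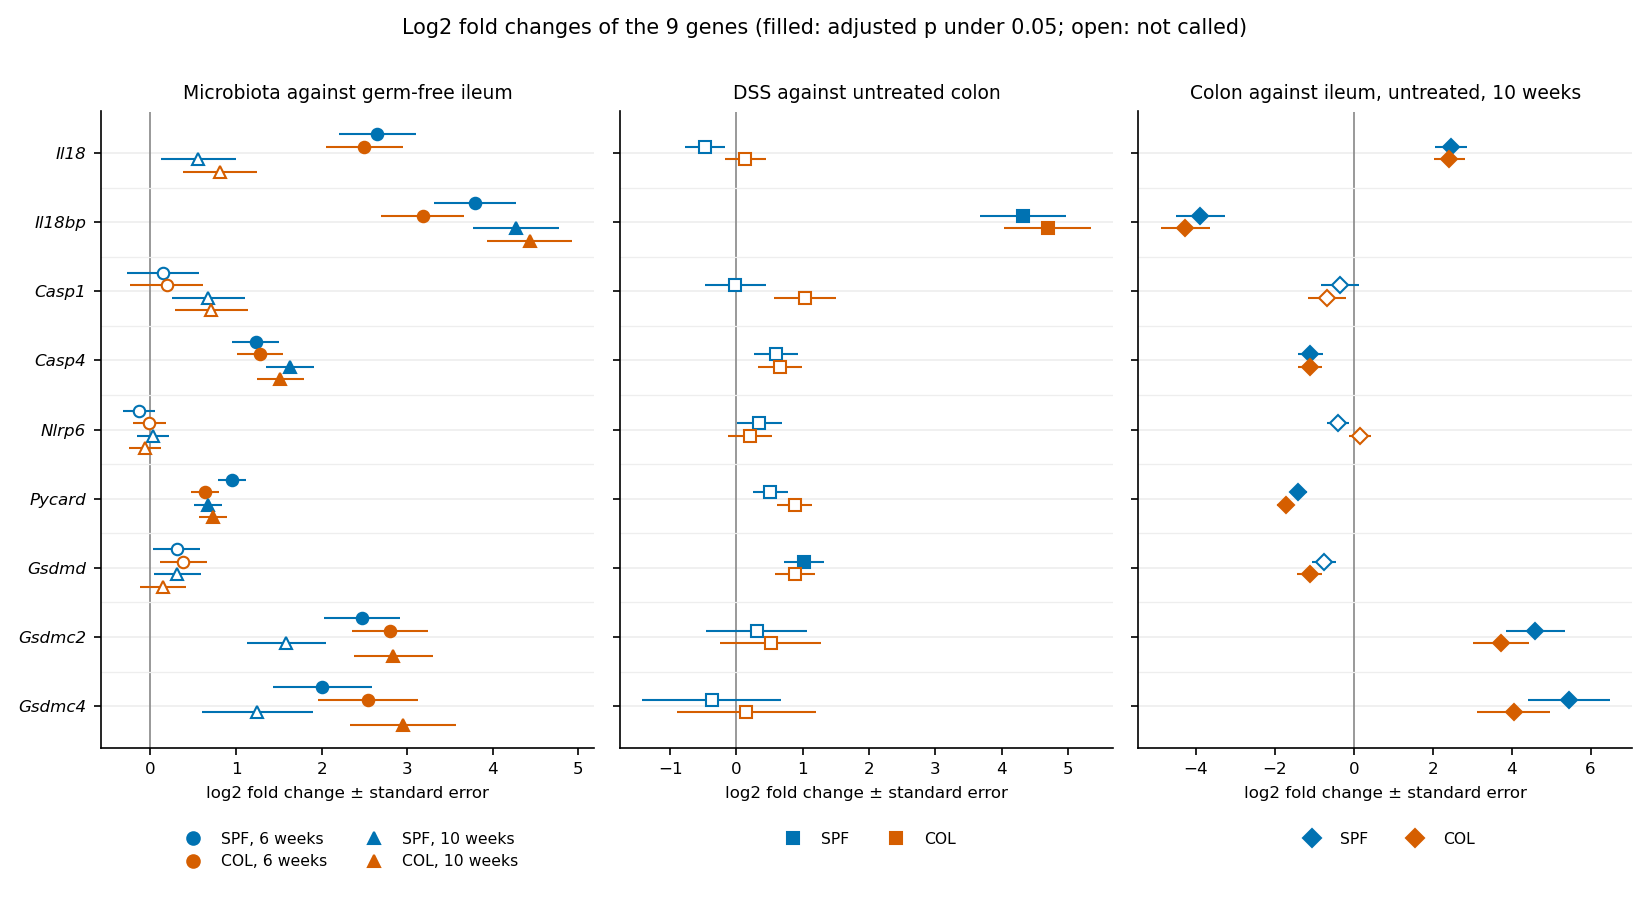
Log2 fold changes with standard errors of the 9 genes for a microbiota against germ-free ileum, DSS against untreated colon and colon against ileum, with filled symbols for an adjusted p under 0.05. Il18bp is to the right of 3 in all 4 microbiota and both DSS comparisons and to the left of -3 in both tissue comparisons.

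The wider pathway was read from lists of other genes, whose counts stand beside 2.78 to 5.1% of all genes rising and 1.86 to 4.04% falling over GF ileum. Of 18 tested inflammasome sensors and partners, 1 rose in SPF and 0 in COL over GF ileum at 6 weeks and 5 rose in each at 10 weeks. The ATP-gated channel gene P2rx7 was among these, at 27.3 CPM in SPF and 22.8 CPM in COL against 7.21 CPM in GF ileum at 10 weeks (1.95 ± 0.33 and 1.71 ± 0.32, adjusted p = 3.4e-04 and 8.8e-04). So were the interferon-inducible genes Gbp2 (1.69 ± 0.44 and 2.31 ± 0.43) and Ifi204, near the floor in GF at 0.195 CPM, in SPF and COL, and Gbp5 in COL (1.78 ± 0.53). Naip6, whose product helps sense bacterial flagellin, rose in SPF by 1.17 ± 0.24 at 6 and 0.81 ± 0.24 at 10 weeks (adjusted p = 0.0023 and 0.043). Under DSS 4 of the 18 rose and 2 fell in SPF colon, beside 12.2% and 11.9% of all genes, and 1 rose and 1 fell in COL colon, beside 4.14% and 3%. Txnip, which encodes a thioredoxin-binding protein, fell in both, by -1.78 ± 0.38 and -1.82 ± 0.38 (adjusted p = 0.0036 and 0.008), and the membrane channel gene Panx1 rose in SPF by 1.21 ± 0.25 (adjusted p = 0.0032). Gbp5, one of a family of guanylate-binding protein genes with similar copies, rose in both by 2.5 ± 0.64 and 2.47 ± 0.64 (adjusted p = 0.011 and 0.027).

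Of 16 tested interferon-gamma response genes, 9 rose in SPF and 9 in COL over GF ileum at 6 weeks, and 12 in each at 10 weeks. The 2 that fell in COL at 10 weeks, named after their values were seen, were the receptor chain gene Ifngr2 and the kinase gene Jak2. The immunoproteasome gene Psmb9 was 205 CPM in SPF, 152 CPM in COL and 56.5 CPM in GF ileum at 6 weeks (1.87 ± 0.17 and 1.41 ± 0.17, adjusted p = 6e-08 and 1.3e-05). The peptide transporter gene Tap1 rose by 2.23 ± 0.22 and 1.53 ± 0.22 (adjusted p = 2.2e-07 and 1e-04). Under DSS 11 of the 16 rose in SPF colon, beside 12.2% of all genes, and 11 in COL colon, beside 4.14%. Psmb9 rose there by 3.17 ± 0.37 and 3.01 ± 0.36 (adjusted p = 8.7e-05 and 1.7e-04). The list's median was 1.17 to 2.61 in the 4 ileum and 1.85 to 2.09 in the 2 DSS comparisons, beside -0.03 to 0.02 over all genes.

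Of the interleukin-1 family, its receptors and their signalling genes, 0 of 17 tested rose over GF ileum at 6 weeks in SPF or COL, and 1 rose at 10 weeks, in SPF. That gene was Il18rap, a chain of the interleukin-18 receptor, at 5.81 CPM in SPF, 3.12 CPM in COL and 0.809 CPM in GF (2.89 ± 0.79 in SPF, adjusted p = 0.026). The other receptor chain gene, Il18r1, was 3.79 CPM in SPF and 3.73 CPM in COL ileum at 10 weeks and 0.247 and 0.483 CPM in untreated SPF and COL colon. Both receptor genes were called lower in colon, as were 17.2% and 14.3% of all genes in SPF and COL. In untreated SPF and COL colon both were near the floor, with 3 and 9 reads in all for Il18r1 and 8 and 5 for Il18rap. The interleukin-1 receptor antagonist gene Il1rn was called higher in colon, at 201 CPM in SPF and 222 CPM in COL against 7.79 and 9.12 CPM in ileum (4.57 ± 0.52 and 4.60 ± 0.51, adjusted p = 1.7e-07 and 1.4e-07). Under DSS 3 of 15 tested rose and 1 fell in SPF colon, beside 12.2% and 11.9% of all genes. In COL colon 0 were called, beside 4.14% of all genes rising and 3% falling. Il1b, the other cytokine gene whose product caspase-1 matures, was 65.4 ± 98.7 CPM in DSS-treated and 0.582 ± 0.528 CPM in untreated SPF colon (SD, n = 3 each), a rise of 6.69 ± 1.51 (adjusted p = 0.012 by edgeR), with an SD above the mean after DSS. The shared signalling adaptor gene Myd88 rose in SPF by 1.02 ± 0.21 (adjusted p = 0.0028), and Sigirr, an inhibitory receptor gene, fell by -0.76 ± 0.24 (adjusted p = 0.033).

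The list of other caspases and gasdermins also held the granzyme genes Gzma and Gzmb and the gene Serpinb1a. Of 12 tested, 4 rose in SPF and 2 in COL over GF ileum at 6 weeks. At 10 weeks 4 rose in SPF and 5 in COL, and 1 fell in COL. Gzma and Gzmb, also counted among the T-cell markers, were called higher in SPF at both ages and in COL at 10 weeks. Gzma was 139 CPM in SPF against 3.13 CPM in GF ileum at 6 weeks (5.67 ± 0.78, adjusted p = 5.9e-04). Gsdme, another gasdermin gene, was 62.6 CPM in COL against 134 CPM in GF ileum at 10 weeks (-1.06 ± 0.20, adjusted p = 8.3e-04). It was 2.44 CPM in untreated SPF colon against 96 CPM in SPF ileum (-5.29 ± 0.37, adjusted p = 5.1e-13), opposite in direction to Gsdmc2 and Gsdmc4. Gsdmc3 rose in all 4 comparisons with GF, by 2.39 ± 0.50 and 3.19 ± 0.51 in SPF and COL at 6 weeks (adjusted p = 0.0029 and 2.9e-04). Under DSS 3 of 13 tested rose in SPF colon, beside 12.2% of all genes, and 0 in COL, beside 4.14%. Those in SPF included Casp8 (0.90 ± 0.27, adjusted p = 0.024) and the protease inhibitor gene Serpinb1a (0.72 ± 0.23, adjusted p = 0.031).

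Type 2 and tuft cell genes were listed because gasdermin C genes are known to respond to interleukin-4 and interleukin-13 in mouse intestine. The genes of those cytokines, Il4 and Il13, had 0 to 2 and 0 to 1 reads in all per group and were not tested. Over GF ileum 3 of 11 tested rose and 1 fell in SPF at 6 weeks, 2 rose and 1 fell in COL, and 2 rose in each at 10 weeks. Retnlb, which encodes a goblet cell protein, was 930 CPM in SPF and 1470 CPM in COL against 168 CPM in GF ileum at 6 weeks (2.48 ± 0.55 and 3.12 ± 0.56, adjusted p = 0.015 and 0.0062). Ltc4s, which encodes leukotriene C4 synthase, fell there by -2.05 ± 0.55 in SPF and -2.00 ± 0.56 in COL (adjusted p = 0.019 and 0.035). The receptor gene Il4ra rose with SPF at 6 weeks by 0.98 ± 0.23 (adjusted p = 0.0077). Under DSS 2 of 10 rose and 1 fell in each kind of mouse. Of all genes 12.2% rose and 11.9% fell there in SPF, and 4.14% and 3% in COL. Il4ra rose under DSS by 2.56 ± 0.32 in SPF and 1.38 ± 0.31 in COL colon (adjusted p = 1.5e-04 and 0.013). The gene that fell under DSS was Clca1, of a secreted goblet cell protein, by -3.17 ± 0.58 in SPF and -2.50 ± 0.56 in COL (adjusted p = 0.0024 and 0.017). A list of 12 genes around interleukin-18 action held interferon-gamma, interleukin-12 and interleukin-22 with their receptors, Reg3b and Reg3g. Of the 6 tested, 3 rose in SPF and 2 in COL at 6 weeks and 2 in each at 10 weeks. These counts do not say which of the genes rose. The interferon-gamma gene Ifng had 0 to 16 reads in all per group, too few to read. Under DSS 0 of 4 tested were called in SPF or COL colon, beside 24.1% and 7.14% of all genes.

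Genes with the most similar profile were found by Pearson's r of log2 CPM over the 30 libraries, given as a description, since all genes share these libraries and their tissue difference. For Il18bp they were Psmb9, Tap1 and Cxcl9, each at 0.95. For Il18 they were B3galt5 (0.94), Slc40a1 (0.92) and Mfsd4a (0.91). For Casp4 they were Herc6 (0.9), Nos2 (0.86) and H2-D1 (0.83), and for Pycard Rrbp1 (0.93), Pla2g4c (0.93) and Unc5cl (0.92). Gsdmd was nearest to Krt20 (0.87), Casp8 (0.85) and Rnf115 (0.82). Gsdmc2 and Gsdmc4 were nearest to each other and to Gsdmc3 (each 0.98), then to Endod1 (0.97 and 0.94). These gasdermin C genes share 3′ sequence, so their counts, and the likeness among them, are uncertain. Casp1 and Nlrp6 reached lower values, with Arf1 (0.81) and Ifih1 (0.69) first. Between Il18 and Il18bp r was 0.17 over all libraries, 0.59 within ileum and -0.22 within colon.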

How the data were processed

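The deposited files hold raw read counts per gene symbol, made by the authors from 3′ tag libraries. Per the submitters' processing notes, Trimmomatic 0.36, FastQC 0.11.5, STAR 2.5.3a and HTSeq were used with mm10, and the strand setting and annotation of the counting are not given in the sources used here. Summary lines, 5 per file, stayed out of all totals; 44.6 to 54.1% of a library's reads were counted in genes and 28 to 36.9% did not align uniquely. Multi-mapped reads of similar genes are thereby lost. The 30 replicate pairs all differed by more than counting noise, with a chi-square of 5.46 to 52.2 for each degree of freedom, and were kept as separate libraries.

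Groups came from sample titles. Counts were tested with edgeR 4.0.16 in R 4.3.3 (TMM, filterByExpr, robust quasi-likelihood test, Benjamini-Hochberg adjustment over all genes tested), in 3 fits: 12 colon libraries, 18 ileum libraries and, for colon against ileum, all 30. There were 18 comparisons, 3 of them interactions. CPM values use TMM-scaled library sizes, and profiles were compared on log2 CPM with a prior count of 2. The procedure was tested on simulated data. Alternatives were DESeq2 1.42.0, its size factors in edgeR, no filter, a replicate block, only the 6 libraries compared and leaving out each library.

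The 9 members, the gene lists and the markers were chosen with earlier results of these data known. From each list but that of genes around interleukin-18 action, up to 4 called genes per comparison with the smallest adjusted p could be named, and for each member the 3 genes with the highest correlation. Replicate numbers, taken from the titles, pair SPF and GF ileum at 10 weeks, where same-numbered libraries deviated together, with r of 0.23, 0.18 and 0.15; libraries of unlike number averaged -0.093. In the other comparisons they did not at every number.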

Additional observations from a re-analysis of the deposited data

How the results depend on the processing

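Of 162 member differences, 61 changed sign under at least 1 alternative, all with an unadjusted p of 0.05 or more; none of the 36 called ones did. Of 608 alternative values of the 54 member differences with an unadjusted p under 0.05, 565 stayed on the same side of the threshold, 25 lost the call and 18 gained it. The number of members called under DSS in SPF colon, 2 as fitted, was 1 with only the 6 libraries and 1 to 3 when each library was left out. Under DSS in COL colon, 1 as fitted, it was 2 by DESeq2, 2 with no filter (Pycard added in both) and 3 with only the 6 libraries (Pycard and Gsdmd added). For SPF against GF ileum at 10 weeks, 3 as fitted, it was 4 with the replicate block and 5 with only the 6 libraries and the replicate block, an alternative chosen after seeing the data. For 10 against 6 weeks in SPF ileum, 0 as fitted, it was 2 by DESeq2, 1 with the replicate block, 1 with only the 6 libraries and 0 to 1 when each library was left out. In COL ileum, 0 as fitted, it was 1 by DESeq2, 1 with the replicate block and 1 with only the 6 libraries. Leaving out each library gave 5 to 6 and 4 to 6 for SPF and COL against GF at 6 weeks, 2 to 3 for SPF at 10 weeks, and 5 to 7 and 6 to 7 for colon against ileum in SPF and COL. The replicate block gave 5 for SPF against GF at 6 weeks, where the Gsdmc4 adjusted p was 0.058, and beside these 4 comparisons it moved no count. The cause of these moves was not tested. With 3 libraries a group, uneven members such as Gsdmc4 under DSS (standard error 1.05) could hide sizeable differences.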
